A study of Mus musculus with 4 samples.

Results

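The 10 genes described here make a vertebrate photoresponse end and adjust it to calcium: Guca1a, Guca1b, Gucy2e, Gucy2f, Rcvrn, Grk1, Rgs9, Rgs9bp, Gnb5 and Pdc. They were taken from a list of gene names, matched to Ensembl gene identifiers, and no threshold on a measured value was used. Of 13452 Ensembl genes with counts, 9 were on the list, with 31 of 44325 isoforms and 3081650 counts (2.06% of all). Rgs9bp had no counts under its own gene identifier and is described last, from loci named by position.

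Light makes the opsin of a photoreceptor activate transducin, transducin activates a phosphodiesterase, and the fall in cyclic GMP closes channels that carry sodium and calcium. Recovery needs the opsin to be phosphorylated, transducin to hydrolyse its GTP and cyclic GMP to be made again. The fall in calcium drives part of this, through calcium-binding proteins that act on the kinase and on the guanylate cyclases.

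The mice were male and wild type, of the inbred strain C57BL6/J, and their retinas were dissociated with papain. Of 4 single-cell libraries, 2 had no enrichment (1 of them from postnatal day 40, the other without an age in its labels), 1 had CD73 enrichment (postnatal week 8) and 1 had CD90.2 enrichment (postnatal month 4). CD73 marks the surface of photoreceptors and CD90.2 that of many neurons, and the protocol describes the CD73 step as depletion. The cDNA, made with 10x Genomics chemistry, was read as long molecules on a nanopore instrument. The deposited counts stand in 6 columns, 1 per cell class, that do not separate libraries, so values have no replicates and classes are compared by size, without a test. Intervals are exact 95% intervals, Poisson for levels and Clopper-Pearson for shares, and cover counting error only.

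Column totals ran from 3509890 counts in ganglion cells and 6133094 in Müller glia, through 7307134 in cones, 29010038 in bipolar cells and 48248340 in amacrine cells, to 55437340 in rods. Levels are counts scaled to a column total of 1000000 (CPM), and the 3 counts that a count of 0 allows correspond to 0.0541 CPM in rods and 0.855 CPM in ganglion cells. All 6 rod markers were highest in rods and all 6 cone markers in cones, and each of the 6 bipolar, 6 amacrine and 6 ganglion markers was highest in its own column, as were 5 of 6 Müller glia markers. The Müller glia column also had the highest level of all 6 microglia markers (1626 CPM summed) and of 3 of 4 pigment epithelium markers (8805 CPM summed), and their part in the Müller glia values was not tested. Summed microglia markers had 702 CPM in rods and 54.2 CPM in cones. Summed rod markers stood at 5.89% of their rod level in Müller glia, 4.14% in cones, 1.74% in bipolar cells and 0.644% in amacrine cells. Summed cone markers stood at 1.89% of their cone level in rods. All 6 rod markers, and also Gnb1, a G-protein subunit of many cell types, were listed at 0 in the ganglion column, so a 0 there is given only as listed.

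The 9 counted genes together held 4.97% of all rod counts (49692 CPM) and 3.26% of all cone counts (32635 CPM). They held 0.523% in Müller glia, 0.145% in bipolar cells, 0.0294% in amacrine cells and 0.00157% in ganglion cells. Of the 9, 7 had their highest level in rods, 1 in cones (Guca1a) and 1 in ganglion cells (Rgs9). Of the 12654 genes with at least 20 counts, 23.9%, 8.48% and 13.7% were highest there. At least 80% of the CPM summed over classes lay in rods and cones for 7 of the 9, against 4.55% of those 12654 genes. The exceptions were Gucy2e with 49.9% and Rgs9 with 30.9%, both genes of few counts. All 9 were at least 2-fold higher in rods than in amacrine cells (33.3% of all genes) and in bipolar cells (29.0%), and 8 were so over Müller glia (33.3%). Against ganglion cells the number was 7 (37.4%), and 8 of the 9 were listed at 0 there. So were 42.1% of genes with at least 20 counts, 9.47% of genes with at least 1000 counts and 3.94% of genes with at least 10000 counts. The 7 calls against ganglion cells all rest on a listed 0 taken as 3 counts.

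**Figure D1:**
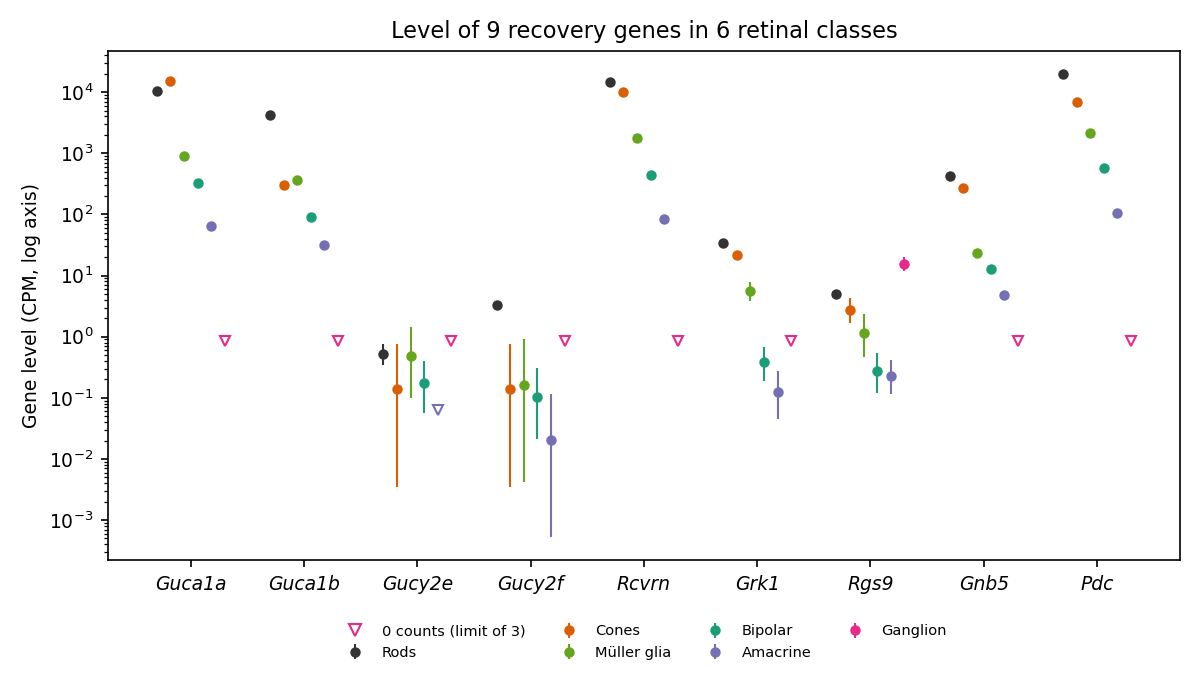
Level of each recovery gene (log axis, CPM) in the 6 cell classes, 1 point per class with its exact 95% counting interval; open marks stand for a count of 0 and are drawn at the limit of 3 counts. Guca1a was highest in cones at 15151 CPM, Rgs9 in ganglion cells at 15.7 CPM, and the other 7 genes in rods.

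The promoters of the cyclase genes and of the activator gene Guca1a are shown first, because these 3 hold the motif TAATCC, the core of the site read by the photoreceptor homeodomain factor CRX. Sequences are from RefSeq on GRCm38.p6, minus strand, 250 bases before the transcription start and 50 from it on, printed 5′ to 3′ with matches to TAATCC or its reverse complement GGATTA in capitals. They lie at chr17:47400557-47400856 (Guca1a), chr11:69236973-69237272 (Gucy2e) and chrX:142196887-142197186 (Gucy2f).
Guca1a: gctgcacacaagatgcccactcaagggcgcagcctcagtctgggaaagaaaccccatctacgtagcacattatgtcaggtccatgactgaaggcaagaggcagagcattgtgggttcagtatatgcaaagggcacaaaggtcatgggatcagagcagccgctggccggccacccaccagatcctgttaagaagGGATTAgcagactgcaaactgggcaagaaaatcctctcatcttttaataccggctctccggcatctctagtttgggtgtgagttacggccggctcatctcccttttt
Gucy2e: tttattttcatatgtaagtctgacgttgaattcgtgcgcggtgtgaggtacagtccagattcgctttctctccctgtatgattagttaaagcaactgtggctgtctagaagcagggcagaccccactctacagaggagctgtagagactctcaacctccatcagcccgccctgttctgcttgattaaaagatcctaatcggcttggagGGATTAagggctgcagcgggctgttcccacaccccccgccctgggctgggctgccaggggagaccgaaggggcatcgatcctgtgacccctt
Gucy2f: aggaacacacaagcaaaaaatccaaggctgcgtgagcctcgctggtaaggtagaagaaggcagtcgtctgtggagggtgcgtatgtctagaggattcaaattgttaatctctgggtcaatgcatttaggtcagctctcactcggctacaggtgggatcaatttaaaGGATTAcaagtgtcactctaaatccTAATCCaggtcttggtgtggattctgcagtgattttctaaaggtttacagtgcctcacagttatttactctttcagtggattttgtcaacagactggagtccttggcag
The match began 57 bases before the start in Guca1a, 42 before it in Gucy2e, and 84 and 59 before it in Gucy2f. Of 7 genes with an entry, 4 had a match on either strand, the other being Gnb5 at 6 bases before the start, while the windows of Grk1, Rgs9 and Pdc held none of these letters. The motif was in 2320 of 32851 promoters of the same length (7.06%), and 118 (0.359%) held 2 matches. A match is a description of the letters and no evidence of binding. Guca1b, Rcvrn and Rgs9bp had no entry.

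Gucy2e and Gucy2f encode the membrane guanylate cyclases of photoreceptor outer segments, which make cyclic GMP again after light. Both had few counts. Gucy2e (ENSMUSG00000020890.11, GRCm38 chr11:69218117-69237036, minus strand) had 29 counts in rods, 5 in bipolar cells, 3 in Müller glia, 1 in cones and none in amacrine or ganglion cells. Its level was 0.523 CPM in rods (0.350 to 0.751), 0.489 CPM in Müller glia (0.101 to 1.43), 0.137 CPM in cones (0.00346 to 0.762) and 0.172 CPM in bipolar cells (0.0560 to 0.402). These 4 intervals overlap, so the order of the classes for Gucy2e was not resolved at this depth. Gucy2f (ENSMUSG00000042282.4, chrX:142081160-142196931, minus strand) had 186 counts in rods, 3 in bipolar cells, 1 each in amacrine cells, cones and Müller glia, and none in ganglion cells. Rods, at 3.36 CPM (2.89 to 3.87), stood above every other class, where the highest upper bound was 1.05 CPM. Its rod level was 24.5-fold its cone level (interval 4.35 to 973, on 1 cone count), and for Gucy2e the ratio was 3.82-fold (0.634 to 156, also on 1 cone count).

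Few of the cyclase counts came from models with the whole coding region. The 3324-nt coding region of Gucy2e lay in ENSMUST00000021259.8, of 19 exons, which had 10 of the 29 rod counts and none elsewhere. The most abundant Gucy2e isoform, unannotated and of 4 exons, had 17 counts, all in rods, and a 7-exon isoform near the 3′ end held all 5 bipolar, all 3 Müller glia and the only cone count. For Gucy2e, then, the counts outside rods and those of rods came largely from different models. Gucy2f had 13 isoforms of 3 to 20 exons on 192 counts. Its full form, ENSMUST00000042530.3 with 20 exons, had 6 counts (4 in rods, 2 in bipolar cells), and the most abundant isoform, of 5 exons, had 66 counts, 63 of them in rods. Of the 13 Gucy2f models, 8 began at the first annotated base, 2 ended in the last exon (13 counts), and 5 ended at the same base inside the gene, 142105276 (54 counts). Most Gucy2f counts thus came from models that hold part of the gene.

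Guca1a and Guca1b encode the guanylate cyclase-activating proteins GCAP1 and GCAP2, which switch the cyclases on when calcium falls. The pair are neighbours on chromosome 17 of GRCm38, Guca1b on the plus strand (ENSMUSG00000023979.14, chr17:47385393-47392967) and Guca1a on the minus strand (ENSMUSG00000023982.8, chr17:47394558-47400584). Guca1a had 15151 CPM in cones, 10507 CPM in rods, 899 CPM in Müller glia, 328 CPM in bipolar cells, 65.8 CPM in amacrine cells and was listed at 0 in ganglion cells. Guca1b had 4187 CPM in rods, 365 CPM in Müller glia, 308 CPM in cones, 91.2 CPM in bipolar cells, 31.3 CPM in amacrine cells and was listed at 0 in ganglion cells. Guca1a was thus high in both photoreceptor classes and Guca1b in rods. Guca1a was 1.44-fold higher in cones than in rods (log2 ratio of rod to cone level −0.53, interval −0.54 to −0.52), and Guca1b was 13.6-fold higher in rods (3.77, 3.71 to 3.83). Each had a single annotated isoform of 4 exons, ENSMUST00000059348.8 with a coding region of 606 nt and ENSMUST00000024774.13 with one of 603 nt. A single isoform was listed for 3 of the 9 genes, these and Rcvrn (31.9% of all genes). Rod markers in the cone column stood at 4.14% of their rod level (2.53 to 5.12% over the 6 markers) and Guca1b at 7.35%, and what the rod markers contribute to that level was not tested.

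Rcvrn encodes recoverin, which holds back the opsin kinase while calcium is high, and Grk1 encodes that kinase, which phosphorylates the light-activated pigment. Rcvrn (ENSMUSG00000020907.1, chr11:67695326-67703333, plus strand) had 14696 CPM in rods, 10014 CPM in cones, 1756 CPM in Müller glia, 438 CPM in bipolar cells, 84.3 CPM in amacrine cells and was listed at 0 in ganglion cells. Grk1 (ENSMUSG00000031450.8, chr8:13405081-13421951, plus strand) had 33.6 CPM in rods (32.1 to 35.2), 21.6 CPM in cones (18.4 to 25.3), 5.54 CPM in Müller glia, 0.379 CPM in bipolar cells and 0.124 CPM in amacrine cells, and was listed at 0 in ganglion cells. Both were shared between the photoreceptor classes at close ratios. Rcvrn was 1.47-fold higher in rods (log2 0.55, 0.54 to 0.56) and Grk1 1.55-fold higher (0.64, 0.40 to 0.88), the Grk1 ratio resting on 158 cone counts. All Rcvrn counts were on ENSMUST00000021290.1, of 3 exons with a coding region of 606 nt. Glp2r overlaps Rcvrn on the opposite strand and had 100 counts in all. Whether the counting used strand is not given in the sources used here.

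Grk1 had 2 isoforms that differ by 4 bases at the junction of exons 5 and 6 of 7. The annotated ENSMUST00000033827.7 had 1975 counts and the unannotated form 97. The junction is shown because these 4 bases decide the reading frame. The line gives the last 20 bases of exon 5, the 4 bases absent from the unannotated form in capitals (chr8:13414324-13414327) and the next 20 bases of exon 6, from GENCODE M21 transcripts on GRCm38, plus strand.
Grk1 exon junction: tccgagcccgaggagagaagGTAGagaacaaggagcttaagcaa
Without GTAG the reading frame ran to a stop after 1233 nt in place of 1692 nt, 159 nt before the last exon junction. The genome also has GTAG directly after exon 5, and another annotated coding transcript, ENSMUST00000209909.1, places its junction 4 bases later on both sides and so has the same coding sequence length. The unannotated form pairs the earlier exon 5 end with the later exon 6 start, both of them annotated edges. It made up 4.88% of Grk1 counts in rods (3.95 to 5.96%) and 2.53% in cones (0.694 to 6.35%), with 2 of 34 counts in Müller glia and none of the 11 bipolar and 6 amacrine counts. The rod and cone shares have overlapping intervals. The part of alignment at the repeated bases was not tested.

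Rgs9 encodes the GTPase-activating protein that, with Gnb5 and an anchor protein, makes transducin hydrolyse its GTP. As background, the gene is known for a short form with a brief C-terminal tail in photoreceptors and a long form with an extended tail in brain neurons. Rgs9 (ENSMUSG00000020599.13, chr11:109225355-109298129, minus strand) had 15.7 CPM in ganglion cells (11.8 to 20.4, on 55 counts), 5.00 CPM in rods (4.43 to 5.62, on 277 counts) and 2.74 CPM in cones (1.67 to 4.23, on 20 counts). Müller glia had 1.14 CPM (0.459 to 2.35), bipolar cells 0.276 CPM (0.119 to 0.543) and amacrine cells 0.228 CPM (0.114 to 0.408). Ganglion cells, rods and cones followed each other without overlap of neighbouring intervals, whereas cones and Müller glia overlapped, as did bipolar and amacrine cells. The ganglion level was 3.14-fold the rod level (2.30 to 4.20), and 22.6% of all genes were at least 2-fold higher in ganglion cells than in rods. Rods were 1.83-fold above cones (log2 0.87, 0.21 to 1.60). Rgs9 was the only 1 of the 9 genes with a count in the ganglion column.

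The counts of that column were on a form with another 3′ end. All 55 ganglion counts (100%, interval 93.5 to 100%) were on the annotated long form, ENSMUST00000020920.9, with 19 exons and a coding region of 2025 nt. It has no transcript model among those of the authors, so its exons, coding region and 3′ end are those of GENCODE M21. That form had 0 of 277 rod counts (upper bound 1.32%) and 0 of 20 cone counts (upper bound 16.8%). In rods 225 of 277 counts (81.2%, 76.1 to 85.7%) were on an unannotated 16-exon isoform that ends as the short form does, and in cones it was 9 of 20 (45.0%, 23.1 to 68.5%), against 0 of 55 in ganglion cells (upper bound 6.49%). Rod markers too are listed at 0 in the ganglion column, so this 0 is given only as listed. The 100% share of the long form and both ganglion intervals rest on it. Grouped by 3′ end, rods had 235 counts with the short-form end, 0 with the long-form end and 42 on models that end upstream of both. Cones had 13, 0 and 7. Amacrine cells had 3, 7 and 1, bipolar cells 4, 1 and 3, and Müller glia 1, 5 and 1, so the few counts outside photoreceptors were divided between the ends.

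The alternative ends are printed because they separate the photoreceptor columns from the ganglion column. Both lines begin with the last 20 bases that the forms share, in lower case, and go on in capitals, from GENCODE M21 transcripts, minus strand of GRCm38. The short end reads on past the shared exon part (109235900 to 109236017, 118 nt) for 57 bases to its stop codon, chr11:109235843-109235899. The long end joins the next exon, 109227126 to 109227604 (479 nt), of which the first 60 bases are shown.
Rgs9 short end: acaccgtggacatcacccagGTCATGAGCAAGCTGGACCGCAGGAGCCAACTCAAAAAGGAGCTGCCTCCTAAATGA
Rgs9 long end: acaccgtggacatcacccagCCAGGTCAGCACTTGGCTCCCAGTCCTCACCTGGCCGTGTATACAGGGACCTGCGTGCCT
The rod isoform has a longer first exon (169 against 129 nt) and last exon (1824 against 961 nt) than the annotated short form ENSMUST00000106706.7 (17 exons, coding region 1452 nt). Between them it differs by the absence of a 30-base exon at chr11:109250027-109250056 and by 9 more bases (109259827 to 109259835) at an exon edge that another annotated transcript uses. Its coding region had 1431 nt, in frame to the same stop. The absent exon is printed in capitals.
Rgs9 30-base exon: AAACAAACTGTCACTGCTGTCAGAAAAGAG
By the rule that the most abundant isoform differs and a share differs by at least 50 percentage points, with at least 20 counts per class, Rgs9 was the 1 switched gene of 4 that could be compared. Over all genes, 1828 of 7317 comparable ones were switched in at least 1 pair of classes, nearly the same proportion, and 13.3% were switched between rods and ganglion cells. Rgs9 met it between ganglion cells and each photoreceptor class, in part on the listed ganglion 0 of the short-form end. Amacrine markers summed to 41.6 CPM in the ganglion column with 1 of 6 at 0, against 686 CPM in amacrine cells, and ganglion markers to 16915 CPM. Rgs9 itself was at 0.228 CPM in amacrine cells, below its 15.7 CPM in ganglion cells.

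**Figure D2:**
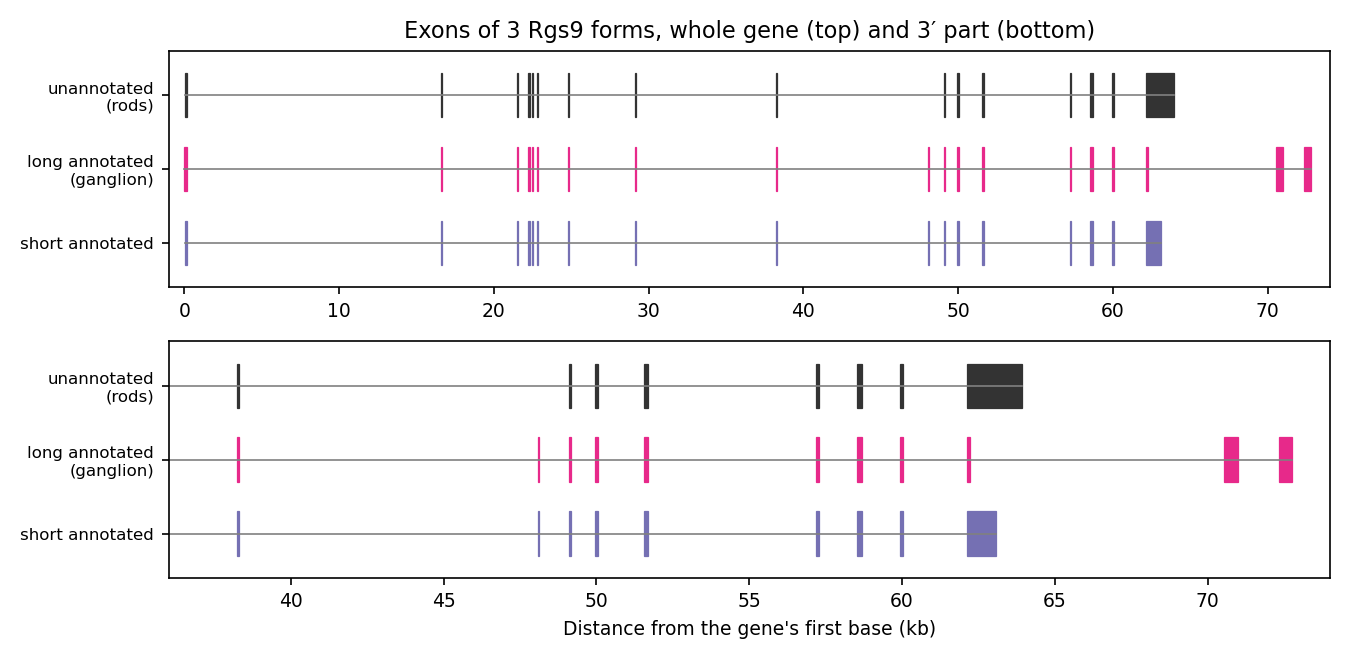
Exon maps of the unannotated Rgs9 isoform of rods, the annotated long form ENSMUST00000020920.9 and the annotated short form ENSMUST00000106706.7, with boxes for exons and lines for introns, against the distance in kb from the first base of the gene, for the whole gene and enlarged for its 3′ part. The rod isoform ends with a long exon of 1824 nt where the long form has 118 nt and continues into 2 more exons.

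**Figure D3:**
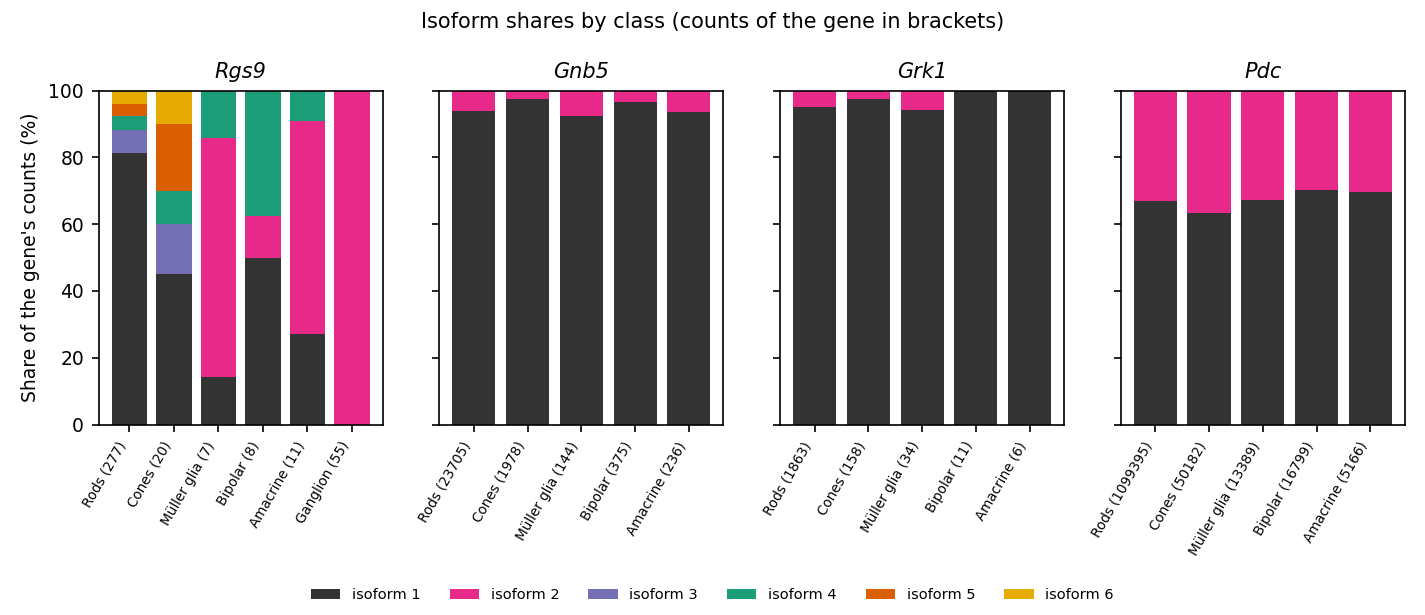
Share of each isoform (percent of the gene's counts, stacked to 100%) by class for Rgs9, Gnb5, Grk1 and Pdc, with the counts behind each bar in brackets. In Rgs9 isoform 1 had 81.2% in rods and isoform 2 had 100% in ganglion cells, while in Gnb5, Grk1 and Pdc the same isoform led in every class drawn.

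Gnb5 encodes the G-protein beta subunit that binds Rgs9 and its relatives, with a long form known from photoreceptors and a short form from other neurons. Gnb5 (ENSMUSG00000032192.9, chr9:75306288-75345876, plus strand) had 428 CPM in rods (422 to 433), 271 CPM in cones (259 to 283), 23.5 CPM in Müller glia, 12.9 CPM in bipolar cells, 4.89 CPM in amacrine cells and was listed at 0 in ganglion cells. Rods were 1.58-fold above cones (log2 0.66, 0.59 to 0.73). An antisense gene inside it, Gm19531, had 33 counts in all. Per kb of transcript model, the rod level of Gnb5 was 194 CPM and that of Rgs9 was 1.83 CPM. Of the other partners of Gnb5, Rgs7 was highest in ganglion cells (14.2 CPM), close to its 12.4 CPM in bipolar cells, with 9.31 CPM in cones. Rgs6 was highest in Müller glia (22.8 CPM) and Rgs11 in bipolar cells (123 CPM). The anchor gene Rgs7bp was highest in amacrine cells (81.8 CPM), close to its 79.8 CPM in ganglion cells. No intervals were computed for these partners, so the order of close classes was not resolved.

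Of the Gnb5 counts, 24929 were on ENSMUST00000213990.1, the long form with 13 exons and a coding region of 1185 nt, and 1509 on an unannotated isoform of it. That isoform extends exon 7 of 13 by 59 nt, chr9:75334302-75334360, up to an edge that an annotated processed transcript also uses. The extension is printed in capitals after the last 20 bases of the annotated exon, from GENCODE M21 transcripts on GRCm38, plus strand.
Gnb5 exon end with extension: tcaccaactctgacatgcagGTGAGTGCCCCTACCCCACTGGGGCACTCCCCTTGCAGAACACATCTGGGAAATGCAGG
The 59 bases shift the frame, and the coding region ran to a stop after 690 nt, 545 nt before the last exon junction. The extended form made up 5.99% of Gnb5 counts in rods (5.69 to 6.30%), 2.53% in cones (1.88 to 3.32%), 3.47% in bipolar cells (1.86 to 5.86%), 6.36% in amacrine cells (3.60 to 10.3%) and 7.64% in Müller glia (3.87 to 13.3%). The rod share lay above the cone share with no overlap of intervals, and the other classes overlapped one or both. Both Gnb5 models begin at the first base of the long form, 75306288.

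Pdc encodes phosducin, a photoreceptor protein that binds the beta and gamma subunits of transducin in a light-dependent way. Pdc (ENSMUSG00000006007.14, chr1:150319417-150333906, plus strand) had 19831 CPM in rods, 6868 CPM in cones, 2183 CPM in Müller glia, 579 CPM in bipolar cells, 107 CPM in amacrine cells and was listed at 0 in ganglion cells. Pdc was 2.89-fold higher in rods than in cones (log2 1.53, 1.52 to 1.54). Both of its isoforms are annotated, have 4 exons and share a coding region of 732 nt. ENSMUST00000165062.7 has 12 bases more at the end of exon 1 (chr1:150319489-150319500), before the coding start, printed in capitals after the preceding 18 bases.
Pdc first exon end: ggaacagagacccaaactGTGAGTCTACAA
ENSMUST00000191228.6, without them, made up 66.9% of Pdc counts in rods (66.8 to 67.0%), 63.3% in cones (62.8 to 63.7%), 67.3% in Müller glia (66.5 to 68.1%), 70.3% in bipolar cells (69.6 to 71.0%) and 69.7% in amacrine cells (68.4 to 71.0%). Cones had the lowest share, with no overlap with any other class, but the whole range over classes was narrow beside the shift in Rgs9.

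Levels of different genes were compared only in rods, per kb of transcript model and then per kb of annotated transcript. Dividing by length lowers long genes most, and whether counts here grow with length was not tested. Per kb of model, Pdc had 16045 CPM, Rcvrn 14131, Guca1a 12035, Guca1b 2527, Gnb5 194, Grk1 16.2, Rgs9 1.83, Gucy2f 1.65 and Gucy2e 0.236. The genes of the calcium-binding regulators and of phosducin thus stood highest, and those of the cyclases lowest. Per kb of the longest annotated coding transcript, Pdc had 5946 CPM, below Rcvrn (14131) and Guca1a (12035), Grk1 had 4.52, Gucy2f 0.413 and Gucy2e 0.0628. The Pdc length used there, 3335 nt, is that of ENSMUST00000185698.1, which has a 246-nt coding region and is not among the counted isoforms. The counted Pdc models averaged 1236 nt, so the lower Pdc place rests on a transcript without counts. Longest annotated coding transcripts had 873 nt in Guca1a, 1040 nt in Rcvrn and 1668 nt in Guca1b, against 8331 nt in Gucy2e, 8122 nt in Gucy2f and 7431 nt in Grk1. The models of the latter 3 averaged 2214, 2028 and 2071 nt, so long messages were also those with few counts and short models, and the part of read length in these levels was not tested.

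The question of how the recovery genes divide between rods and cones was set beside the activation genes. Of the 9 genes, 4 were at least 2-fold higher in rods (Guca1b, Gucy2e, Gucy2f and Pdc; 27.9% of all genes), 0 at least 2-fold higher in cones (10.4% of all genes) and 5 within 2-fold. The interval of the Gucy2e ratio includes equal levels. Their median log2 ratio was 0.87, against 0.40 over the 9993 genes compared. Of 10 rod activation genes all 10 were at least 2-fold higher in rods, with a median of 4.47, from Pde6g (1.00, a subunit of the phosphodiesterase) to Slc24a1 (5.87, the rod calcium exchanger, on 2 cone counts). Pde6g (interval 0.994 to 1.01) and Gngt1 (1.03) lay at the cut-off. Scaling by the median of ratios, which moves every log2 ratio by −0.26, puts both under it. All 10 cone activation genes were at least 2-fold higher in cones, with a median of −5.64. Among them Slc24a2, the cone exchanger, was nearest to rods at −4.87, and the cone channel gene Cnga3, with 0 counts in rods, was at least 255-fold lower there, taken against the limit of 3 counts. Of 10 compared genes among 11 other recovery and feedback genes, 1 was higher in rods, 2 in cones and 7 within 2-fold (median 0.08), from Arr3, cone arrestin, at −5.73 to Rgs6 at 1.78 on 1 cone count. Of 8 compared neuronal calcium sensors among 10 listed, 3 were higher in rods, 1 in cones and 4 within 2-fold (median 0.84). Of these 4, Kcnip1 had 22 rod counts and 0 cone counts, so its ratio was taken at the limit of 3 counts and is a lower bound. The sensors ranged from Kcnip2 at −1.10 to Kcnip3 at 3.23 on 1 cone count. Neither these lists nor the recovery genes were tested against each other.

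**Figure D4:**
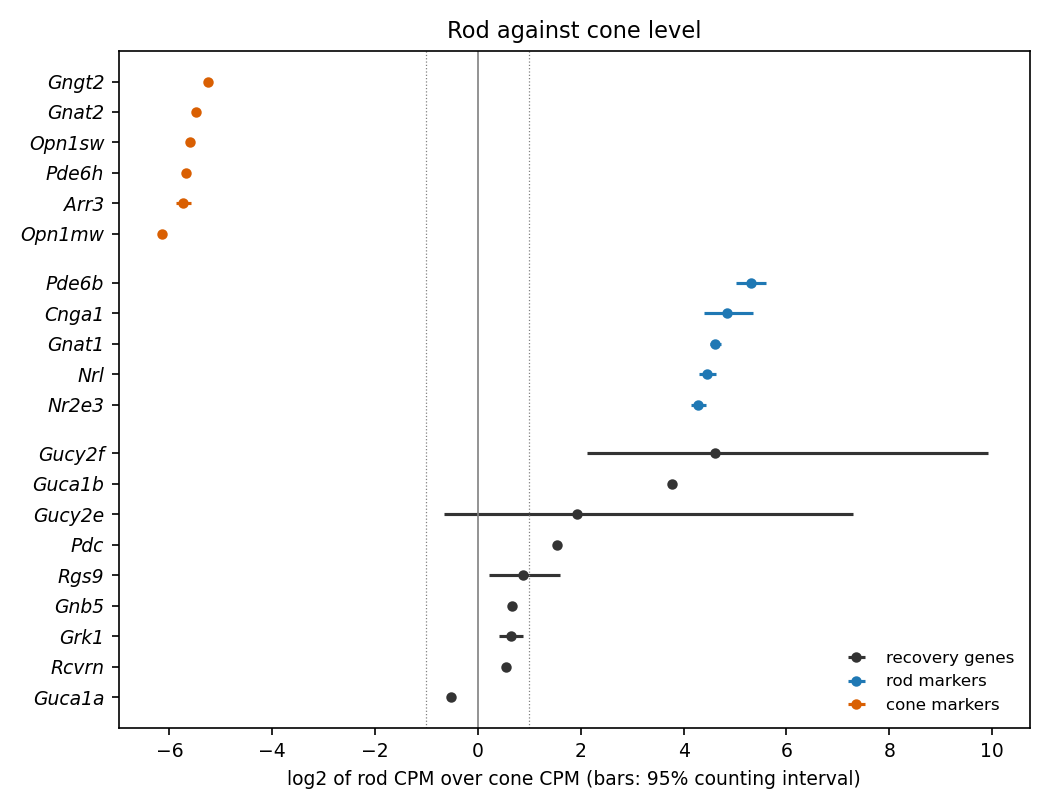
Log2 ratio of rod to cone level of the 9 recovery genes, 5 of the rod markers and 6 cone markers, 1 point per gene with its 95% counting interval and dotted lines at 2-fold either way. The recovery genes lie between −0.53 and 4.62, the rod markers between 4.29 and 5.31 and the cone markers between −6.15 and −5.24.

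Levels outside photoreceptors were set beside those of the rod markers, which themselves differed in their percent of the rod level within a column. The part of rod RNA in these levels was not tested. In amacrine cells, where rod markers stood at 0.371 to 0.969% of their rod level, Guca1a stood at 0.626%, Guca1b at 0.747%, Gucy2f at 0.618%, Rcvrn at 0.574% and Pdc at 0.540%. Grk1 stood at 0.370% on 6 counts, Gnb5 at 1.14% and Rgs9 at 4.56% on 11 counts, while the Gucy2f value rests on 1 count. In bipolar cells, where rod markers ran from 1.54 to 2.04%, 8 of the 9 genes lay above all 6 markers, from Guca1b at 2.18% to Gucy2e at 32.9% (on 5 counts). Grk1, at 1.13% on 11 counts, lay below all of them, and Gucy2f lay above them on 3 counts. These percents carry no counting interval, and at such counts the place of Grk1 and Gucy2f beside the markers was not resolved in either column. In Müller glia, where rod markers ran from 0.984 to 7.86%, 7 lay above all 6, with Guca1a at 8.56%, Guca1b at 8.71%, Pdc at 11.0%, Rcvrn at 11.9% and Grk1 at 16.5%. Of these 27 values, 19 were within 2-fold of the summed rod markers. The exceptions were all 3 values each of Gucy2e and Rgs9, genes of few counts in these columns, and Grk1 and Rcvrn in Müller glia. How many of all genes, or of other rod genes, lie above the 6 markers was not counted. The 8 and 7 genes above them are therefore not read as a trait of the recovery genes. Other rod genes lay on both sides in bipolar cells. Gngt1 had 6378 CPM there against 44574 CPM in rods, and Slc24a1 had 0.0689 CPM against 16.0 CPM.

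Cone RNA was added to the same reckoning, by a rule chosen after the values were seen. The level that the rod and cone marker shares of a column would give was computed for each gene. The observed level of Guca1a was 0.857 times that in amacrine cells, 1.07 times in bipolar cells and 1.27 times in Müller glia. Over the 9 genes the median was 0.857, 1.34 and 1.81. The values ran from 0 to 6.74 in amacrine cells, 0.499 to 16.9 in bipolar cells and 0.822 to 15.5 in Müller glia. Within 2-fold were 7, 6 and 6 of the 9. The highest value was that of Rgs9 in amacrine cells and of Gucy2e in the other 2 columns, on few counts. In the cone column, rod marker shares alone gave 435 CPM for Guca1a against 15151 CPM observed (34.8 times as much), and 173 CPM for Guca1b against 308 CPM observed, 1.78 times as much. Gucy2f in cones stood at 0.985 times that level, on 1 count. For the remaining genes the cone level was 6.32 to 16.5 times what the rod markers gave, the lowest being Gucy2e on 1 count. In rods, the observed level was 36.7 times what cone marker shares gave for Guca1a and more for the other genes. The reckoning takes 1 marker share per column for all genes, while rod activation genes differed in the cone column. Gngt1 had 21831 CPM in cones against 44574 CPM in rods, and Pde6b had 13.1 CPM against 520 CPM. The part of rod RNA in the cone levels was not tested.

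**Figure D5:**
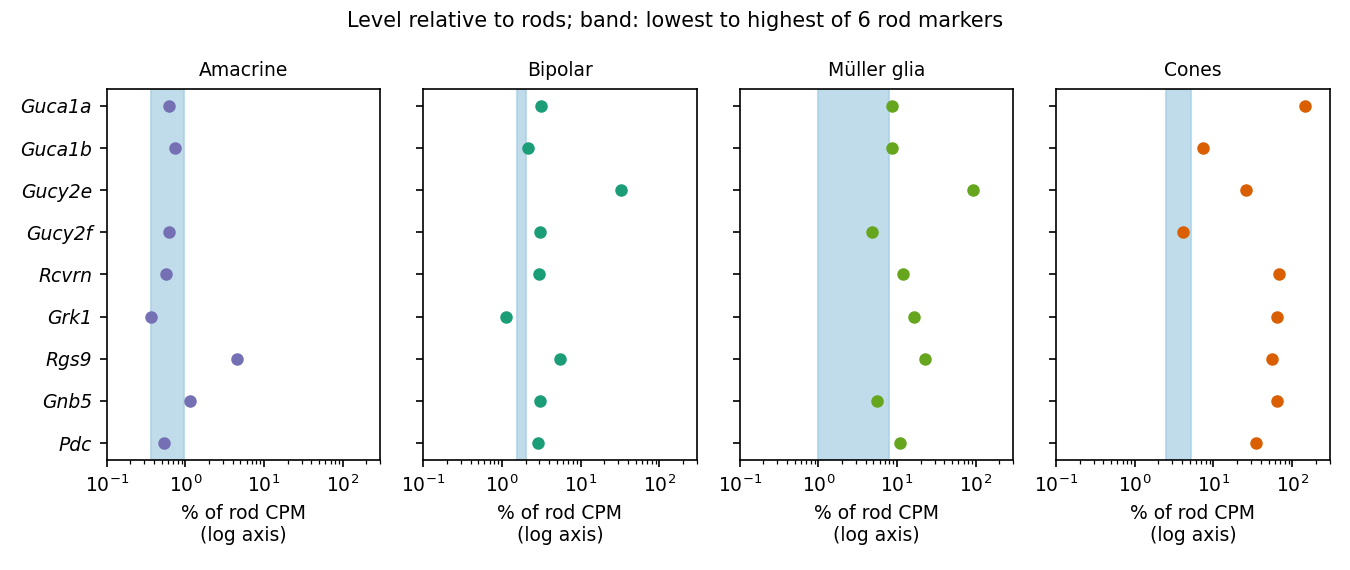
Level of each recovery gene as a percent of its rod level (log axis), 1 panel per class, with the range of the 6 rod markers as a band; Gucy2e, at 0 in amacrine cells, is not drawn there. In the cone column Guca1b at 7.35% lay nearest above the band of 2.53 to 5.12% and Gucy2f at 4.08% inside it, while Guca1a stood at 144%.

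Outside the list, the genes whose spread over the 6 classes was most like that of each recovery gene were found among 5220 genes with at least 1000 counts, by the sum of absolute differences in percent of summed CPM. For Guca1a they were Ankrd33 (0.55 percentage points) and Aipl1 (3.37), for Guca1b Tcp11 (2.94) and Nipal1 (3.30), and 1 of those for Gucy2f was Sh2d1a (2.12). For Rcvrn 1 was Cabp4 (2.59). They were for Grk1 Cabp4 (7.44) and Drd4 (8.15), for Gnb5 Cerkl (4.23) and Ccdc24 (4.96), and for Pdc Prph2 (4.87) and Syne2 (5.00). The profile of Guca1a was matched most closely, by a gene with 56.1% of its summed CPM in cones and 39.1% in rods. Gucy2e (Asrgl1, 13.2, and Ifngr1, 16.0) and Rgs9 (Hpcal1, 18.2, and Rnd1, 27.4) were farthest from their nearest genes. Their profiles rest on 38 and 378 counts in all, and that of Gucy2f on 1 count each in amacrine cells, cones and Müller glia. The distances take no account of counting error, and its part in them was not tested.

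Unannotated isoforms made up 21 of the 31 isoforms (67.7%) but 2130 of 3081650 counts, 0.0691% (0.0662 to 0.0721%), against 63.5% of all isoforms and 6.35% of all counts. The pooled share is set by Pdc, Rcvrn, Guca1a and Guca1b, the genes with the most counts, which had no unannotated isoform. Gene by gene it was 96.9% for Gucy2f, 82.0% for Rgs9, 73.7% for Gucy2e, 5.71% for Gnb5 and 4.68% for Grk1. With at least 1 count, 30 of the 31 isoforms were listed in rods, 16 in cones, 14 each in bipolar cells and Müller glia, 12 in amacrine cells and 1 in ganglion cells. The columns differ in depth, and the part of depth in these numbers was not tested. How many of all 44325 isoforms were listed in each column was not counted. The numbers per class thus have no background and are not read as a trait of these genes. Of 96 distinct splice junctions in the models, 83 were in GENCODE M21, and the other junctions joined splice sites that M21 holds.

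Rgs9bp encodes the membrane anchor of the Rgs9 complex. Its gene (ENSMUSG00000056043.5, chr7:35578993-35585582, minus strand) has 1 exon, with a coding region of 711 nt at 35584510 to 35585220. On the same strand lay 3 single-exon loci without a gene name, at 35577496 to 35580271 (30 counts), 35578993 to 35582912 (405 counts) and 35582147 to 35585582 (891 counts), the last of which covers the whole coding region. Together they had 1223 counts in rods, 51 in bipolar cells, 46 in cones, 6 in amacrine cells and none in Müller glia or ganglion cells. Their level was 22.1 CPM in rods (20.8 to 23.3), 6.30 CPM in cones (4.61 to 8.40), while bipolar cells had 1.76 CPM (1.31 to 2.31) and amacrine cells 0.124 CPM (0.0456 to 0.271). Rods thus stood 3.50-fold above cones and 12.5-fold above bipolar cells, and no 2 of these 4 intervals overlapped.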

How the data were processed

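Single-cell cDNA of 4 mouse retina libraries was sequenced as long reads. The authors deposited whole-number counts per isoform in 6 pooled class columns. The authors also deposited transcript models with coordinates as text fields, which exist only for isoforms with a rod count. The build, mm10, is credited to the submitters' processing notes. Whether counts are reads or molecules, and how cells were typed and doublets treated, is not given in the sources used here. All 6 columns were used (0 left out).

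Counts were summed per gene and scaled to a column total of 1000000. Ratios were taken for genes with at least 20 counts over both columns, and a column at 0 was set to 3 counts. Background shares cover all Ensembl genes under the same rule. Models were compared with GENCODE M21, which held 115691 of 122601 distinct junctions (94.4%). Coding regions were read from annotated start codons in M21 transcript sequence. The members and lists were chosen with earlier results of these data known. All members are named with their most abundant and switched isoforms, the extremes of the rod to cone ratio in each list, and the 2 genes nearest in profile. Rules were tested on simulated data. Alternatives were other scalings, minimums on counts, the most abundant isoform alone and other cut-offs. Analyses used Python 3.11.15, numpy 2.4.6, pandas 2.3.3, scipy 1.17.1 and matplotlib 3.10.9. No test between classes was made, because each class is 1 pooled column. Results that need 2 other genes are not reported here.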

Additional observations from a re-analysis of the deposited data

Results flagged for a closer look

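The 3 loci named by position that overlap Rgs9bp lie outside the gene-level counts and are given for that reason. They had 1223 counts in rods, while no isoform was listed under the gene itself, and no test was made of this.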

How the results depend on the processing

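Over 155 comparisons with an alternative setting, 126 kept their value within 1 counting interval or their count within 1.5 times, 29 moved and 0 reversed. Part of the 126 could not move. Genes with 1 isoform are the same with the most abundant isoform alone, and genes listed at 0 in ganglion cells are the same without that column. No model of these genes has a single exon, so leaving out such models changed no share. Only rod to cone ratios of at least 2-fold could be called reversed, so the tally does not measure stability. With at least 100 counts required per class, 0 genes were switched, because the Rgs9 ganglion count is 55. Counted by isoform in place of by count, the unannotated share was 67.7%. Scaling by the median of ratios moved the log2 rod to cone ratio of every gene by −0.26, and a trimmed mean by −0.01. Under the former the median of the 9 genes was 0.61, Guca1a stood at −0.79 and Rcvrn at 0.29, and 6 genes were highest in rods, since Gucy2e became highest in Müller glia. With the most abundant isoform of each gene alone, 8 were highest in rods, and the photoreceptor share of Rgs9 rose from 30.9 to 93.6%. Without the ganglion column, an alternative chosen after seeing the data, that share was 82.5%. Depth limits Gucy2e, Gucy2f and Rgs9 most. No paired analysis was possible because class columns have no replicate number, nor could a library be left out.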
